A study of Mus musculus with 6 samples.

Results

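Arg1-positive C1q macrophages were 4467 of the 10010 C1q macrophages (44.6%) and 5.99% of the 74546 cells in 4 single-cell libraries of mouse pancreatic tumours. They were chosen by measured values. A barcode counted as a cell with at least 500 UMIs (molecular tags that count each captured transcript once), more than 200 genes and under 10% mitochondrial UMIs. A C1q macrophage was a cell in which C1qa, C1qb and C1qc held at least 0.2% of UMIs and S100a8 and S100a9 under 1%, with no UMI of Cd3e and at most 1 of Mki67 and Top2a together. A member also held at least 2 UMIs of Arg1 (chromosome 10 from 24915221 to 24927484 on the minus strand, GRCm38, the build of all positions below). The values of these genes therefore describe the choice and support nothing.

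The tumours grew in the pancreas of wild-type C57BL/6 mice aged 6 to 8 weeks and were taken 4 weeks after injection of KPC cells. KPC cells derive from a mouse model of spontaneous pancreatic cancer in which a Pdx1-driven Cre acts in the pancreas and Trp53 is mutant. The cells carried a control vector (OE-Vector) or mouse Mlkl, the membrane-rupturing pseudokinase of necroptosis (OE-MLKL), and the macrophages of both groups came from hosts that carried no construct. The labels name 3 samples a group, each from 1 tumour, and the matrices of all but OE-Vector 2 and 3, which were not analysed here, were read.

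Arginase 1, the product of Arg1, splits arginine into ornithine and urea and so uses the same substrate as the inducible nitric oxide synthase encoded by Nos2. Macrophages switch Arg1 on under type 2 cytokines, lactate, low oxygen and the uptake of dying cells, and Arg1-expressing macrophages can deplete the arginine that T cells need. C1q, made of the chains C1qa, C1qb and C1qc, starts the classical complement pathway and marks resident-like tissue macrophages.

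The members numbered 1078 in OE-Vector 1, 930 in OE-MLKL 1, 1363 in OE-MLKL 2 and 1096 in OE-MLKL 3, and no member barcode occurred in more than 1 library. Total depth lay between 150591289 and 169978362 UMIs a library. The median member held 9004.5, 5287, 5425 and 7733 UMIs in that order of libraries, and the median C1q macrophage with no Arg1 UMI, called Arg1-free here, held 5002.5, 3664, 3972 and 5500.5. Members were thus deeper in 4 of 4 libraries, and both sets were also compared in equal numbers of cells matched on UMIs per cell, called matched depth. The mitochondrial share of UMIs was lower in the members in 4 of 4 libraries, at 3.66% to 4.24% against 3.89% to 4.68%, and at matched depth at 3.52% to 4.24% against 3.94% to 4.67%. Without called doublets it was lower in 3 of 4, with OE-Vector 1 at 4.05% against 4.02%, and its part in the gene differences was not tested. A doublet score marked 13.5% to 23.0% of members and 7.52% to 17.7% of Arg1-free cells, and these cells were kept in the main comparisons.

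Mlkl itself did not separate the labelled groups. In keratin-positive cells (at least 5 UMIs of Krt8 and Krt18, none of Ptprc or C1q) it was at 13.2 CPM (UMIs of the gene over all UMIs of the set, scaled to 1000000) in the library labelled OE-Vector 1, with a 95% Poisson interval of 9.72 to 17.5. The libraries labelled OE-MLKL 1, 2 and 3 gave 8.45, 12.4 and 12.4 CPM. The value of OE-MLKL 3 rests on 9 UMIs in 82 cells (95% Poisson interval 5.69 to 23.6), against 281 and 271 UMIs in OE-MLKL 1 and 2. Whether the keratin-positive cells were the injected KPC cells was not tested. In the members Mlkl stood at 10.4 CPM (OE-Vector 1) and at 7.66, 12.4 and 11.1 CPM in the OE-MLKL libraries. Group names below are therefore those of the labels. Whether transcripts of the construct were counted under Mlkl was not tested.

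The markers of macrophages were present. All 12 genes of the macrophage identity list (4 higher and 2 lower in the members than in Arg1-free cells), among them Adgre1 (F4/80), Csf1r (the receptor for CSF1) and Cd68, had UMIs in the members of every library. Csf1r was at 717 CPM in the members of OE-Vector 1 and at 622, 774 and 929 CPM in OE-MLKL 1, 2 and 3. Mrc1, the mannose receptor, was detected in 82.4% to 90.1% of members and in 1.32% to 4.26% of T cells of the same libraries. The lipid receptor Trem2 was found in 82.3% to 92.7% of members, against 1.83% to 6.46% of T cells. T cells were taken as cells with a UMI of Cd3e and none of C1q and had median depths of 2690 to 3536 UMIs.

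UMIs of other cell types were also present in the members. The 10 cancer markers summed to between 156 and 319 CPM in the members and to between 182 and 381 CPM in Arg1-free cells. Of these, Cdh1 (E-cadherin) was higher in the members in 4 of 4 libraries, at 4.35 to 14.3 CPM against 2.13 to 11.0 (log2 difference 0.86 ± 0.22, edgeR adjusted p = 0.032), but did not pass at matched depth (0.90, adjusted p = 0.17) or without OE-MLKL 1, OE-MLKL 2 or OE-Vector 1. Krt18 was lower (-0.33 ± 0.06, not passing at matched depth), and the other 8 did not pass. Krt8 was detected in 21.4% to 32.0% of members, but also in 14.0% to 23.4% of T cells. The 7 T and NK cell markers summed to 8.53 to 31.1 CPM in the members and to 11.6 to 53.9 CPM in Arg1-free cells. Fibroblast markers summed to 44.6 to 184 CPM against 70.6 to 391 (1 of 7 lower). Neutrophil markers other than S100a8 and S100a9 summed to 142 to 304 CPM against 153 to 378 (2 of 6 lower). At matched depth none of either list was lower. S100a8 and S100a9, which the rule limits, averaged 310 and 352 CPM in the members. Dendritic cell markers summed to 4.18 to 15.3 CPM against 5.57 to 33.3, and endothelial markers to 5.83 to 49.3 CPM against 5.90 to 31.6. The part of doublets and free RNA in these values was not tested. Members without any UMI of Krt8 or Krt18 were also compared on their own, an alternative chosen after seeing the data.

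The share of cells past the bound is given as a description, since Arg1 chose the members. The share of C1q macrophages with at least 2 Arg1 UMIs was 58.8% in OE-Vector 1 (exact 95% binomial interval 56.5 to 61.1), 33.9% in OE-MLKL 1 (32.1 to 35.7), 53.6% in OE-MLKL 2 (51.7 to 55.6) and 37.9% in OE-MLKL 3 (36.1 to 39.7). By the same count, T cells gave 0.406%, 0%, 0% and 0.380%, where 0 of 380 and 0 of 359 cells had exact upper bounds of 0.966% and 1.02%. Neutrophils (S100a8 and S100a9 at 1% of UMIs or more, no UMI of Cd3e) gave at most 0.165%, at median depths of 740 to 1365 UMIs. Keratin-positive cells gave 0.116% to 2.62%. All these cells were taken without a C1q UMI, which also leaves out cells that picked up macrophage RNA. Barcodes too small to be cells held 1347 to 2560 CPM of C1q, so these shares are partly set by the choice of cells. Intervals cover counting error only.

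**Figure D1:**
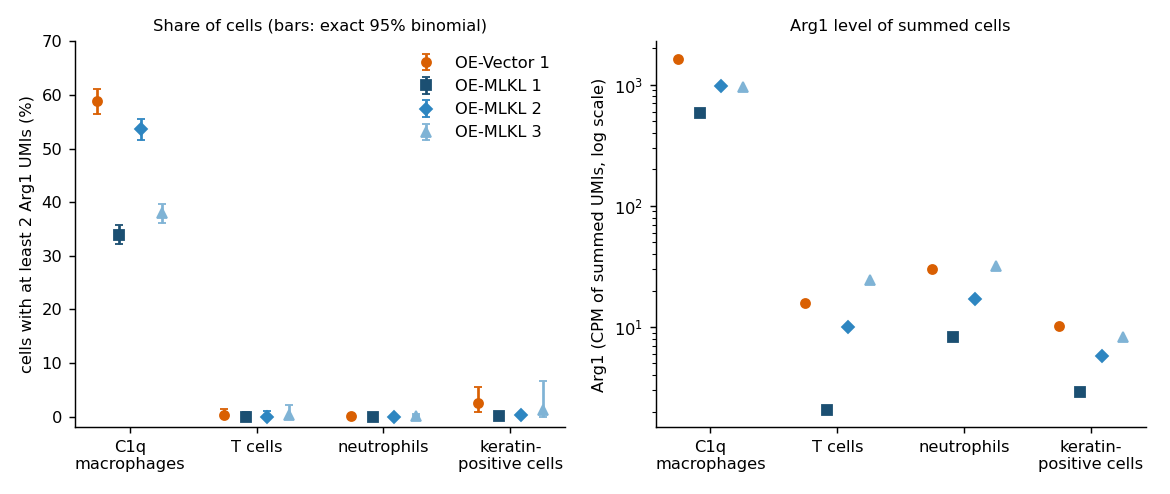
Arg1 by cell type and library, as the share of cells with at least 2 Arg1 UMIs (left, in percent, bars are exact 95% binomial intervals) and as CPM of summed UMIs (right, log scale). C1q macrophages reached 33.9% to 58.8%, while T cells and neutrophils, taken without a C1q UMI, stayed at or below 0.406% in all 4 libraries.

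Within the members the Arg1 count was uneven. The median member held 10 Arg1 UMIs in OE-Vector 1, against 4, 5 and 5 for OE-MLKL 1, 2 and 3, and the highest held 367, 147, 123 and 184. The tenth of members with the most Arg1 held 42.1%, 40.1%, 42.0% and 50.5% of the members' Arg1 UMIs. Members held 61.8% to 72.3% of the Arg1 UMIs of all cells, a share that the choice of members helps to set.

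The bound of 2 UMIs fell in a continuous range. Cells just inside it, with exactly 2 Arg1 UMIs, numbered 125, 243, 296 and 221 and stood at 249.6, 377.5, 352 and 269 CPM of Arg1. Cells just outside it, with 1 UMI, numbered 222, 467, 426 and 500 and stood at 137, 204, 197 and 151 CPM. RNA outside cells, read from barcodes under 100 UMIs, held 236, 77.2, 116 and 138 CPM of Arg1, and the summed T cells held 15.8, 2.07, 9.93 and 24.4 CPM. The cells with 1 UMI were left out of the comparisons below.

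Arg1 by labelled group is likewise described with no test, since the rule used it and OE-Vector has 1 library. Over all C1q macrophages the Arg1 level was 1632 CPM in OE-Vector 1 and 579, 982 and 960 CPM in OE-MLKL 1, 2 and 3, which average 840.0 ± 227 (SD, n = 3). The OE-Vector value lay above all 3 OE-MLKL values. The share of members averaged 41.8% ± 10.4 (SD, n = 3) in OE-MLKL, 17.0 percentage points below OE-Vector 1, and again no OE-MLKL library reached it. With each cell thinned to 1000 UMIs, the expected share with at least 2 Arg1 UMIs came to 29.1% for OE-Vector 1, against 11.4%, 19.6% and 14.5% for the OE-MLKL libraries, after 144, 41, 66 and 306 shallower cells were left out. The order of the libraries was kept.

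Members and Arg1-free cells of the same tumour were then compared, with UMIs summed per library and set and the library as a block. Of 12504 genes tested with edgeR, 561 were higher in the members (4.49%) and 351 lower (2.81%) at an adjusted p under 0.05. The balance depended on the scaling, since with library size alone in place of TMM, which scales to a typical gene, 411 were higher and 567 lower. With depth matched, 409 of 11563 genes were higher (3.54%) and 221 lower (1.91%), of which 380 and 175 were also among the first calls. These make up 67.7% of the higher and 49.9% of the lower genes of the full comparison, and 92.9% and 79.2% of those at matched depth. Without OE-MLKL 3 the full comparison called 565 genes in place of 912. All members held Arg1 by choice, so Arg1 and the other genes of the rule were not tested.

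By a fixed rule the 15 largest differences in each direction were named among 425 genes that passed in both comparisons, differed the same way in all 4 libraries and had a mean of at least 20 CPM in the higher set. Mmp12 (macrophage elastase), Saa3 (an acute-phase serum amyloid), Marco (a scavenger receptor for bacteria and particles), Chil3 (a chitinase-like protein), Ccl24 (an eosinophil chemokine) and the coagulation factors F7 and F10 were among the 15 higher genes, with Nos2, Slc7a2, Rgcc, Tnfrsf9, Prtn3, Il7r, Egln3 and Hilpda. Tnfrsf9 averaged 20.3 ± 29.2 CPM (SD over the 4 libraries) in the members, just past the bound of 20, and Nos2 averaged 38.5 ± 45.4 CPM. Either mean rests largely on its highest library, at 63.9 and 106 CPM. T cells held more Il7r (155 to 238 CPM) and Tnfrsf9 (128 to 262 CPM) than the members in 4 of 4 libraries. The members held 11.0 to 50.7 and 3.96 to 63.9 CPM, and the part of T cell RNA in these values was not tested.

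Slc7a2, on chromosome 8 from 40862396 to 40922308, encodes the arginine transporter CAT2. The members held 179.9 CPM in OE-Vector 1 and 90.5, 93.3 and 306 CPM in OE-MLKL 1, 2 and 3, and the Arg1-free cells held 10.3, 20.7, 16.1 and 15.9 CPM. The sets did not overlap, and the log2 difference was 3.34 ± 0.26 (SE, edgeR adjusted p = 8.1e-06). Gm26584 overlaps Slc7a2 on the other strand.

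Nos2, on chromosome 11 from 78920787 to 78960254, uses the same substrate as arginase. It was at 106, 14.8, 9.79 and 23.3 CPM in the members and at 2.84, 0.506, 2.98 and 1.99 CPM in Arg1-free cells, a log2 difference of 4.08 ± 0.31 (edgeR adjusted p = 6.4e-06). Only 17.6%, 4.30%, 1.91% and 7.12% of members held a Nos2 UMI. At matched depth these shares were 17.4%, 4.17%, 2.00% and 6.45% of members against 1.36%, 0.278%, 1.34% and 1.10% of Arg1-free cells, and T cells gave 0.406%, 0%, 0% and 0%. The shares of both sets were closest in OE-MLKL 2.

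**Figure D2:**
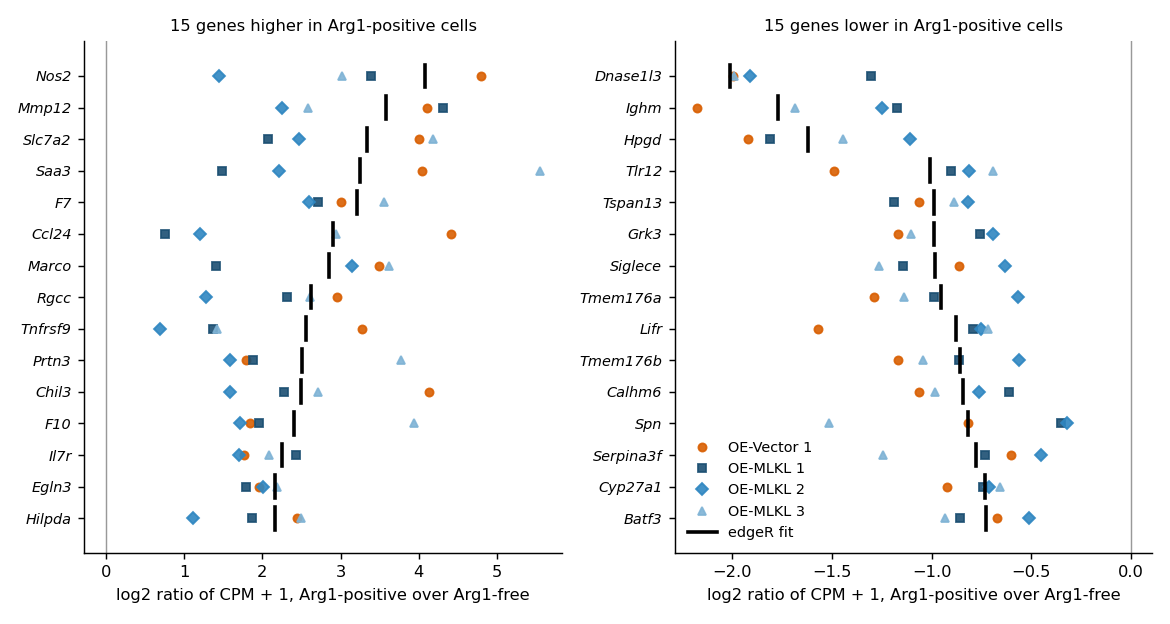
The 15 genes highest and the 15 lowest in Arg1-positive against Arg1-free C1q macrophages, among the 425 that met the rule. Each point is the log2 ratio of CPM + 1 in 1 library and the black bar is the edgeR fit, from 4.08 for Nos2 to 2.16 for Hilpda on the left and from -2.01 for Dnase1l3 to -0.72 for Batf3 on the right, and no point crosses 0.

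Of the 13 genes tested of 14 listed for arginine and polyamine metabolism, 3 were higher and none lower, with a median log2 difference of 0.18 against -0.02 over all genes. Beside Slc7a2 and Nos2, the third was Ass1, which remakes arginine from citrulline, at 32.3, 4.88, 6.41 and 18.2 CPM in the members and 24.1, 3.54, 4.17 and 10.6 CPM in Arg1-free cells. Its log2 difference was 0.64 ± 0.12 (edgeR adjusted p = 0.0071), but 0.45 at matched depth (adjusted p = 0.097). Odc1, which turns ornithine into putrescine, did not pass (0.25 ± 0.07, adjusted p = 0.058), and neither did Srm, the spermidine synthase (0.15 ± 0.08, adjusted p = 0.33).

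Genes of the response to low oxygen were higher together. Of 18 genes listed, 14 were higher in the members and none lower, with a median log2 difference of 1.02, and the same count held at matched depth with a median of 1.07. The response works through hypoxia-inducible factors, which bind a short core in the promoters of glycolytic and vascular genes and which the prolyl hydroxylase Egln3 feeds back on. Egln3 was at 94.8, 27.5, 24.5 and 68.4 CPM in the members and at 23.8, 7.25, 5.36 and 14.2 CPM in Arg1-free cells, a log2 difference of 2.16 ± 0.09 (edgeR adjusted p = 9.7e-08). RNA outside cells held 91.1, 32.2, 38.0 and 58.9 CPM of Egln3, above the members in OE-MLKL 1 and 2, and its part in the level was not tested.

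Bnip3, a mitophagy receptor, stood at 229.6, 174, 92.8 and 165 CPM against 76.3, 63.4, 33.7 and 48.9 CPM. Its log2 difference was 1.63 ± 0.06, and the members' lowest library lay above the highest of the Arg1-free cells. Adm, a vessel-dilating peptide (2.72), Ankrd37 (1.85), Ero1l, an oxidase of disulphide formation (1.66), the lactate exporter Slc16a3 (1.31) and the glucose transporter Slc2a1 (1.23) also passed. Vegfa, the main vessel growth factor, was at 173, 43.5, 22.4 and 159 CPM against 55.0, 23.8, 14.9 and 86.1 CPM, so that the sets overlapped but the members were higher in 4 of 4 libraries (log2 difference 1.12 ± 0.13, edgeR adjusted p = 0.00025). Ndrg1 (0.47), Kdm3a (0.12), Ddit4 (-0.06) and Car9 (0.04) did not pass. Hilpda, a lipid-droplet protein induced by low oxygen and not on the list, had 2.16 ± 0.15. T cells of OE-MLKL 2 held more Hilpda (62.3 CPM) than its members did (53.7 CPM).

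Glycolysis followed gene by gene. All 14 genes listed were higher in the members, with a median log2 difference of 0.72 against -0.02 over all genes, and 13 of 14 passed at matched depth, where Hk1 gave 0.43 (adjusted p = 0.063). Pgk1, the phosphoglycerate kinase, was at 835, 351, 352 and 521 CPM in the members and at 393, 126, 177 and 198 CPM in Arg1-free cells, a log2 difference of 1.30 ± 0.08 (edgeR adjusted p = 8.7e-07). Ldha, which makes lactate from pyruvate, was at 771, 451, 545 and 545 CPM against 467, 276, 358 and 314 CPM, a log2 difference of 0.77 ± 0.05 (edgeR adjusted p = 2.8e-06). The smallest difference was that of Pfkfb3 (0.34 ± 0.07), a regulator of phosphofructokinase. Over 18 alternative settings that kept the library block, 12 to 15 hypoxia genes and 11 to 14 glycolysis genes were higher and none was lower, and without the block none of either list passed.

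**Figure D3:**
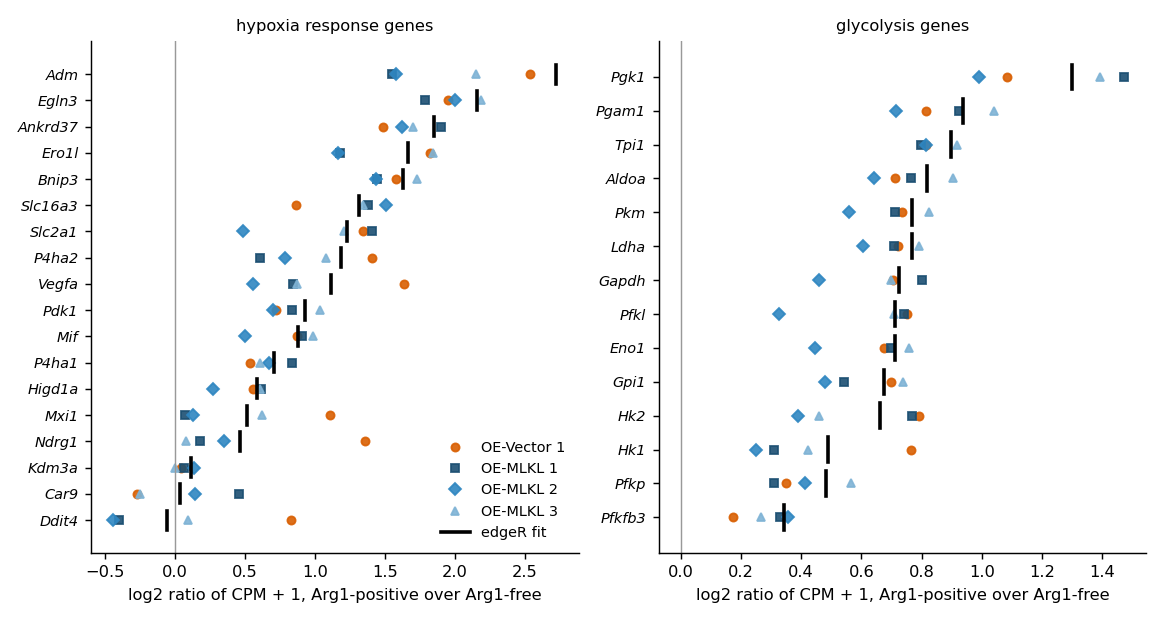
Log2 ratio of CPM + 1, Arg1-positive over Arg1-free, for each gene of the hypoxia response and glycolysis lists. Points are the 4 libraries and black bars the edgeR fit, and the 14 glycolysis genes lie right of 0 in every library, while Car9 and Ddit4 have libraries on both sides.

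Promoters of 3 genes that were higher together are shown because they hold the core to which hypoxia-inducible factors bind. The windows run from 250 bases before to 50 after the gene start and come from RefSeq (GRCm38.p6). The core searched was ACGTG on either strand, in capitals below, where the palindrome CACGTG counts once for each strand. It is also part of the E-box bound by other factors. Pgk1 (chrX:106186850-106187149, plus strand) held 2 matches, Ldha (chr7:46845554-46845853, plus strand) held 5 and Bnip3 (chr7:138909457-138909756, minus strand) held 2.
Pgk1: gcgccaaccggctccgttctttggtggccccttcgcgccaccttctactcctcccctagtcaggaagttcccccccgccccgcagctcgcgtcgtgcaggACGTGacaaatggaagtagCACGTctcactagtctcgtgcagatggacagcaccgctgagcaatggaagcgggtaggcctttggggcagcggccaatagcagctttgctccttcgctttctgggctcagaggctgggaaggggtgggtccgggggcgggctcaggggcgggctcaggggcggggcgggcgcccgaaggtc
Ldha: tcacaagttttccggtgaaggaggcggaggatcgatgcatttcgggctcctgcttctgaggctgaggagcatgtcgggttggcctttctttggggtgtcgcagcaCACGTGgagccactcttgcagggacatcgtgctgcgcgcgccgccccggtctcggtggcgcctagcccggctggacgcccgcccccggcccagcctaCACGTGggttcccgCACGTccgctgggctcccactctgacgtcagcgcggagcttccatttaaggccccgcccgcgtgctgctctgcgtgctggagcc
Bnip3: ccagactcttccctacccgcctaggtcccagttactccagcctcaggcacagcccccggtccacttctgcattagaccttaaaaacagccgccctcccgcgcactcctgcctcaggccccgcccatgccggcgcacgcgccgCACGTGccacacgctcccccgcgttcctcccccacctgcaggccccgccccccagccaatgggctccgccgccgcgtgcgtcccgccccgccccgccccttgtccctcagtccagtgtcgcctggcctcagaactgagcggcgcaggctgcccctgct

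Of the 13 higher hypoxia genes with a window, 9 held the core (69.2%), as did 6 of the 14 glycolysis genes (42.9%). Over all 27025 genes with a window, 5315 did (19.7%). Among the listed hypoxia genes that did not pass, Car9 and Ddit4 held 1 match each and Kdm3a none. Both lists were fixed by pathway, so these shares do not bear on which genes were higher. Egln3 and F10 held 1 match each, and Adm, Hilpda, Mmp12, F7, Chil3 and Saa3 held none in this window. A match is a description of the sequence.

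Genes of lipid handling and lysosomes were partly higher. Of the 18 genes of the lipid-associated macrophage list, 11 were higher and none lower (median 0.49), and at matched depth 10 were higher and 1 lower, which was Lpl, the lipoprotein lipase (-0.67, adjusted p = 0.024). Cd36, a receptor for fatty acids and oxidised lipoproteins, was at 72.2, 14.8, 7.58 and 37.7 CPM in the members and 22.4, 4.89, 7.15 and 5.35 CPM in Arg1-free cells (log2 difference 1.87 ± 0.25, edgeR adjusted p = 0.00059). Gpnmb, a lysosomal glycoprotein, had 1.72 ± 0.16, Fabp5, a fatty acid carrier, 1.21 ± 0.17, and Spp1 (osteopontin) 0.66 ± 0.11. Spp1 was at 675, 437, 478 and 444 CPM in the members, but at 1635, 1012, 1025 and 897 CPM in RNA outside cells and at 319, 320.2, 508 and 199 CPM in T cells. Free RNA thus held more Spp1 than the members in 4 of 4 libraries, and OE-MLKL 2 held more in T cells than in the members. Trem2 and Apoe, which define such cells in many tissues, did not pass (0.22 ± 0.08 and -0.20 ± 0.08).

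Of 12 genes of metalloproteinases and matrix, 6 were higher and none lower (median 0.62), and 6 and 0 passed at matched depth, where Mmp8 passed (0.91) and Mmp13 did not. Mmp8 is also 1 of the neutrophil markers, of which it alone was called higher at matched depth (1 of 6, median -0.0043), and the part of neutrophil RNA in it was not tested. Without OE-Vector 1 it was 4 of 11 with a median of 0.22, and with thinning 3 of 11. Mmp12, on chromosome 9 from 7344381 to 7369499 with Mmp1b on the other strand, was at 567, 55.9, 70.4 and 54.3 CPM in the members and at 31.9, 1.86, 14.0 and 8.25 CPM in Arg1-free cells. The log2 difference was 3.58 ± 0.25 (edgeR adjusted p = 3.4e-06). Only 29.8%, 4.73%, 5.94% and 5.57% of members held an Mmp12 UMI. At matched depth these shares were 26.2%, 4.58%, 4.67% and 5.49% of members. Arg1-free cells then gave 11.2%, 0.833%, 2.17% and 2.47%. Serpinb2, an inhibitor of plasminogen activators, had 3.93 ± 0.52 on low counts of 1.05 to 33.8 CPM, Adam8, a membrane protease, 1.60 ± 0.13, Mmp19 0.74 and Plaur, the urokinase receptor, 0.51. Mmp13, a collagenase, was just past the threshold (edgeR adjusted p = 0.0496, against 0.21 at matched depth) and did not pass without OE-MLKL 1, OE-MLKL 2 or OE-Vector 1. Mmp9 (-0.26) and Mmp14 (0.05) did not pass.

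F7 and F10 encode the proteases that start and carry the clotting cascade. F7, on chromosome 8 from 13026034 to 13035809, was at 38.3, 57.6, 46.3 and 36.1 CPM in the members and at 3.90, 7.93, 6.85 and 2.14 CPM in Arg1-free cells. F10, its neighbour from 13037308 to 13056676, was at 66.2, 101, 75.2 and 77.8 CPM against 17.7, 25.3, 22.3 and 4.13 CPM. Neither gene overlapped between the sets, with log2 differences of 3.21 ± 0.16 and 2.40 ± 0.24, and 3.18 and 2.43 at matched depth. Saa3 was at 951, 1058, 951 and 2550 CPM against 56.8, 377, 204 and 53.2 CPM (3.25 ± 0.50).

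Markers of alternative activation did not move as 1 group. Of 18 genes, 4 were higher and 2 lower, with a median of -0.04 against -0.02 over all genes. The lower count was 5 of 17 without OE-MLKL 3, 1 without OE-MLKL 2 or without OE-Vector 1, and 1 of 17 at matched depth. Chil3 was at 271, 2347, 1445 and 622 CPM in the members and at 14.6, 485, 480 and 94.3 CPM in Arg1-free cells (2.49 ± 0.24), and its level among members was lowest in OE-Vector 1. Chil3 was also found in 4.06% to 31.2% of T cells. Ccl24 (2.90 ± 0.43), Pf4, a platelet-type chemokine (1.24 ± 0.20), and F13a1, a fibrin cross-linker (0.87 ± 0.14), were higher, while Selenop, a selenium carrier (-0.44 ± 0.05), and the lectin Clec10a (-0.84 ± 0.21) were lower, the last not at matched depth (-0.38, adjusted p = 0.52). Mrc1 did not pass, and at matched depth it was detected in 77.4% to 87.3% of members and 76.8% to 89.1% of Arg1-free cells. Ccl24 had 299 CPM in the members of OE-Vector 1 and 11.5 to 33.3 CPM in the others, and its log2 difference lay between 1.75 and 3.88 over the settings tried.

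Of 16 inflammatory genes, 6 were higher and 2 lower (median 0.18), with 5 and 0 at matched depth. Fewer were higher without OE-MLKL 3 (2) or OE-MLKL 1 (3), and with thinning 2 of 15 were (median -0.0047). Il1a (1.18 ± 0.17), Il6 (1.74 ± 0.37), the interleukin 1 antagonist Il1rn (0.71 ± 0.10) and the neutrophil chemokines Cxcl1 (0.60 ± 0.12) and Cxcl2 (0.33 ± 0.08) were higher, and so was Ccl2, which draws monocytes (0.30 ± 0.08). The chemokines Ccl3 (-0.40 ± 0.07) and Ccl4 (-0.43 ± 0.09) were lower but did not pass at matched depth. Il6 was low, at 2.33 to 11.8 CPM in the members, and did not pass without OE-MLKL 1 or OE-MLKL 3. Of the 12 interferon genes, Rsad2 was higher (1.06 ± 0.18) and the T cell attractants Cxcl9 (-0.49 ± 0.06) and Cxcl10 (-0.42 ± 0.06) were lower, of which Cxcl10 did not pass at matched depth (adjusted p = 0.054).

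Of 10 MHC class II genes, which present antigen, 2 were lower and none higher (median -0.23), and at matched depth 3 of 9 tested were lower, with H2-Ab1 (-0.44) added. The count depended on the libraries, with 5 lower without OE-MLKL 1, 1 without OE-MLKL 3 or without OE-Vector 1, and 7 of 9 at matched depth without doublets. The summed list was at 11421, 6782, 7086 and 14253 CPM in the members and at 17404, 6516, 7841 and 21104 CPM in Arg1-free cells, so it was higher in the members of OE-MLKL 1. Ciita, the master regulator of the class, was at 58.5, 28.7, 35.2 and 94.0 CPM in the members and at 124, 33.9, 42.3 and 154 CPM in Arg1-free cells (log2 difference -0.58 ± 0.11, edgeR adjusted p = 0.0076). H2-Eb1 had -0.39 ± 0.09. Both were lower in 4 of 4 libraries, although the libraries of each set overlapped. Other cells also carry MHC class II. The median was -0.58 over 5 dendritic cell markers and -1.22 over 3 B cell markers (1 lower and none fitted higher in each). The dendritic median was -0.19 over 3 markers at matched depth (1 fitted higher) and 0.62 over 3 without OE-MLKL 3. By library these lists did not always go with MHC class II. B cell markers summed to 6.44 CPM in the members of OE-MLKL 1 against 37.9 CPM. Dendritic markers summed to 7.69 CPM in the members of OE-MLKL 2 against 6.26 CPM. The part of these cells in the result was not tested.

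Of 12 monocyte genes, 3 were higher, 3 lower and 6 did not pass (median -0.08), with 4 higher and 3 lower at matched depth (median 0.06). Fn1 (fibronectin, 1.41 ± 0.11), Vcan (versican, 1.56 ± 0.32) and Thbs1 (thrombospondin 1, 0.91 ± 0.10) were higher, and Cx3cr1, the fractalkine receptor (-0.38 ± 0.06), Treml4 (-1.69 ± 0.25) and Spn (-0.82 ± 0.19) were lower. Fn1 was at 1322, 1039.5, 1214 and 1951 CPM in the members against 476, 452, 643 and 551 CPM, so every member value lay above every Arg1-free value. Ly6c2 and Ccr2, which define fresh monocytes, did not pass. T cells held more Spn than the members, at 119 to 211 CPM against 9.05 to 18.7, and the part of T cell RNA was not tested.

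Among the 425 genes that met the rule, the largest decreases were in Dnase1l3, a secreted nuclease that clears DNA from dying cells, and in Ighm. Dnase1l3, on chromosome 14 from 7964533 to 7994573, was at 23.5, 1.04, 3.15 and 10.0 CPM in the members and at 96.5, 4.05, 14.6 and 42.8 CPM in Arg1-free cells (log2 difference -2.01 ± 0.10, edgeR adjusted p = 3.4e-07). Ighm, the heavy chain of IgM, was at 18.1, 2.96, 6.06 and 36.2 CPM against 85.5, 7.93, 15.8 and 119 CPM (-1.77 ± 0.12). Of the 3 B cell markers tested, Cd79b was lower (-0.69 ± 0.15), with a median of -1.22 over the 3 and sums of 6.44 to 18.2 CPM in the members and 12.8 to 37.9 CPM in Arg1-free cells, and the part of B cell RNA in the Ighm value was not tested. Hpgd, which breaks down prostaglandins (-1.62 ± 0.13), Tlr12, a sensor of profilin (-1.01 ± 0.13), and the transcription factor Batf3 (-0.72 ± 0.10) were also lower. So were the overlapping neighbours Tmem176a (-0.95) and Tmem176b (-0.86). RNA outside cells held 258 to 586 CPM of Tmem176a and 447 to 722 CPM of Tmem176b. The members held 81.8 to 170 and 149 to 296 CPM, and the part of free RNA in these values was not tested. Clec9a, a marker of type 1 dendritic cells, was lower too (-1.58 ± 0.34), at 0.174 to 2.81 CPM in the members and in 3 of 4 libraries. It did not pass with DESeq2 or without OE-Vector 1, and without OE-MLKL 3 it was too low to be tested.

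Stress, checkpoint and trap genes passed in part. Hmox1, the haem-degrading oxygenase, was at 651, 885, 263 and 757 CPM in the members and at 294, 202, 180 and 123 CPM in Arg1-free cells (1.69 ± 0.24), 1 of 4 higher genes of 14 in the stress list, with Slc7a11, Gclm and Srxn1, the last not at matched depth. Of 11 checkpoint and suppressive genes tested, 4 were higher and none lower, namely Vsig4 (1.50), Pdcd1lg2 (PD-L2, 1.36), Cd200r1 (0.68) and Lilrb4a (0.29). The count was 2 at matched depth, without OE-MLKL 1 and without OE-Vector 1, and 0 with cells thinned to 1000 UMIs, and Cd274 (PD-L1) did not pass (0.35 ± 0.10, adjusted p = 0.055). Padi4, the enzyme that citrullinates histones in extracellular traps, was higher (1.74 ± 0.33) at 1.74 to 10.9 CPM. Prtn3, a serine protease of granules, was higher too (2.50 ± 0.26), and these were 2 of the 3 tested trap genes. Padi4 did not pass without OE-MLKL 3 (0.93) or without cells holding Krt8 or Krt18 (1.73), which left 1 of 3 in either case. The count was also 1 of 3 with DESeq2 and 1 of 2 tested with thinning. Mpo (myeloperoxidase) had 0 UMIs in the members of 3 libraries. Il7r and Tnfrsf9 were named by the rule as well (2.25 and 2.56), and both were higher in T cells than in the members in all 4 libraries. Of the 7 T and NK markers tested, Nkg7 was lower in the members (-0.63, edgeR adjusted p = 0.048) and none higher, but it did not pass at matched depth (-0.32, adjusted p = 0.56) or without any 1 of the 4 libraries.

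Members were also set beside 2 kinds of Arg1-free C1q macrophages, given by mean and SD over the 4 libraries with no test. The first kind held at least 2 UMIs of Mrc1 and F13a1 together, and the second held Cx3cr1 and no Mrc1. The second kind is small, with 58, 49, 43 and 176 cells in the 4 libraries. Slc7a2 averaged 168 ± 101 CPM in the members, 14.1 ± 5.74 in the first kind and 17.0 ± 2.44 in the second. Bnip3 averaged 165 ± 56.2, 52.2 ± 17.1 and 66.4 ± 11.2 CPM. Fn1 averaged 1382 ± 397, 529 ± 77.8 and 611 ± 147 CPM. For these 3 genes the members' mean lay above both kinds. H2-Eb1 averaged 1095 ± 532, 1441 ± 1044 and 2262 ± 1313 CPM, with spreads that overlapped.

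Levels by the number of Arg1 UMIs per cell are a description with no test, since the split uses the value that chose the members, and they add no support to the comparison above. The hypoxia list summed to a mean of 1091 CPM in cells with no Arg1 UMI, 1151 with 1, 1234 with 2, 1418 with 3 to 5, 1781 with 6 to 15 and 3072.5 with more than 15. For glycolysis the means were 3834, 4130, 4418, 4974, 6140 and 9272 CPM. The mean of both lists was higher at each step, and the largest step, from 6 to 15 UMIs to over 15, was also the largest in each of the 4 libraries. The hypoxia list of OE-MLKL 3 was the exception between 0 and 1 UMI, where it did not increase. The mean of MHC class II was 13216 CPM at 0 UMIs and 9048 CPM above 15, but OE-MLKL 1 went from 6516 to 7294 CPM and OE-MLKL 2 from 7841 to 8646. The mean of Slc7a2 was higher at every step, from 15.8 to 431 CPM, and Apoe, at 22187 CPM with no Arg1 UMI, was at 13020.0 CPM above 15. Cells with more Arg1 UMIs were also deeper, with medians of 8011, 4556, 4826 and 7254 UMIs at 2 Arg1 UMIs and 9727, 6725, 6317 and 8189 above 15, and the part of depth in these steps was not tested.

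**Figure D4:**
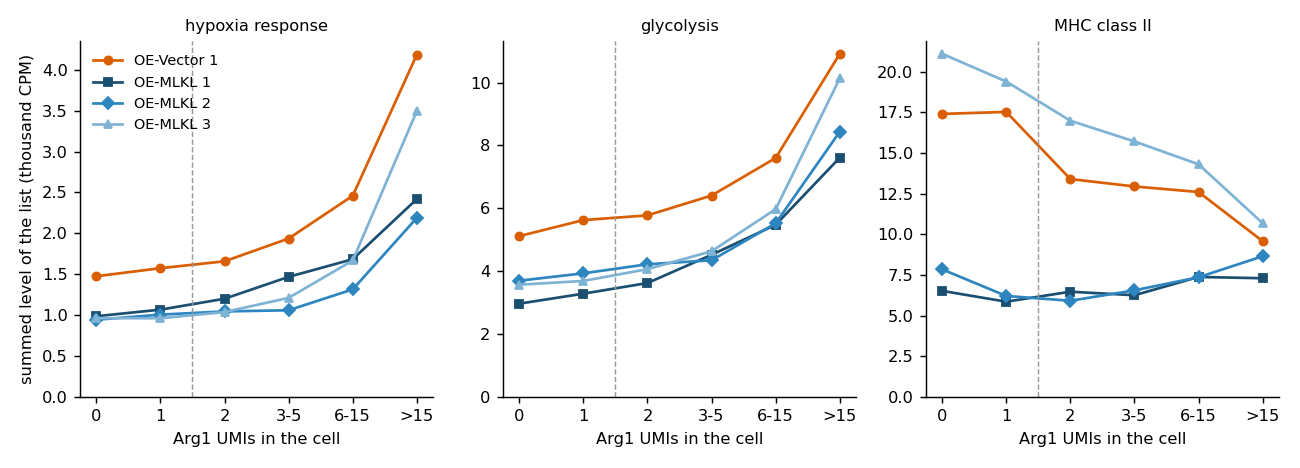
Summed CPM of 3 lists against the number of Arg1 UMIs in the cell, 1 line for each library, with the bound of the rule as a dashed line. Hypoxia and glycolysis genes are highest above 15 Arg1 UMIs in all 4 libraries, at a mean of 3072.5 and 9272 CPM, while MHC class II ends below its level at 0 UMIs in OE-Vector 1 as in OE-MLKL 3, and ends above it in the other libraries.

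Members of the OE-MLKL libraries were compared with those of OE-Vector 1 to ask whether tumours labelled for Mlkl overexpression held a different Arg1-positive macrophage. Of 13071 genes, edgeR called 3 (0.023%), all lower in OE-MLKL. An unadjusted p under 0.05 was reached by 992 genes, and DESeq2 called 72. Without OE-MLKL 1, 2 or 3 the count was 21, 9 or 970, and the 3 genes were among the calls each time. The test rests on 1 OE-Vector library, whose spread was taken from the OE-MLKL group. A difference of this 1 tumour and a difference of the label cannot be told apart.

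The 3 genes were Mmp12, Mmp13 and Apol7c. In the members Mmp12 was at 567 CPM in OE-Vector 1 and at 55.9, 70.4 and 54.3 CPM in OE-MLKL 1, 2 and 3, a log2 difference of -3.39 ± 0.28 (edgeR adjusted p = 0.011). Mmp13, on chromosome 9 from 7272514 to 7283331, was at 181 CPM and at 8.01, 6.06 and 12.6 CPM (-4.50 ± 0.35, edgeR adjusted p = 0.011). For Apol7c, an apolipoprotein L gene on chromosome 15 from 77524852 to 77533316, the members held 150 UMIs in OE-Vector 1 and 4 in the 3 OE-MLKL libraries together, a ratio of 84.7 after division by the summed UMIs (95% interval 32.4 to 315.0, log2 difference -6.45 ± 0.54, edgeR adjusted p = 0.011), and limma-voom did not call it. The 95% interval of the Apol7c ratio is an exact interval on pooled UMIs that covers counting error only, not the spread between tumours. All 3 genes were lower in 3 of 3 OE-MLKL libraries. They were also higher in the Arg1-free cells of OE-Vector 1, where Mmp12 was at 31.9 CPM against 1.86 to 14.0, Mmp13 at 58.2 CPM against 3.37 to 16.5, and Apol7c at 18.5 CPM against 0 to 0.337. RNA outside cells held 111 CPM of Mmp12 in OE-Vector 1 and 6.12, 15.3 and 11.9 CPM in OE-MLKL 1, 2 and 3. In each library this was above the Arg1-free cells and below the members, and its part in the difference was not tested.

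**Figure D5:**
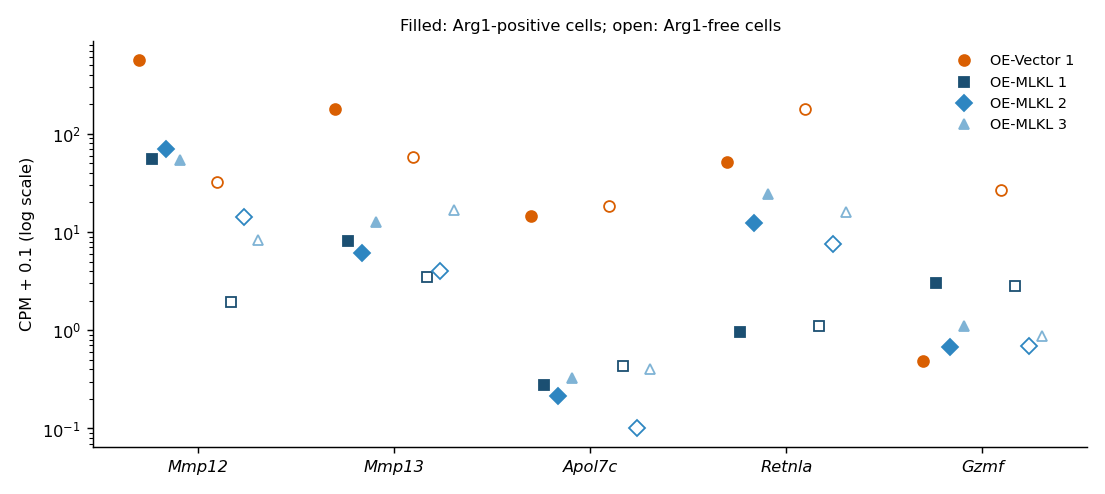
CPM + 0.1 (log scale) of the genes called between the labelled groups, in Arg1-positive (filled) and Arg1-free (open) C1q macrophages of each library. Mmp12, Mmp13 and Apol7c are highest in OE-Vector 1 in both sets, while Retnla and Gzmf of OE-Vector 1 are higher in the open than in the filled symbols.

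Hypoxia and glycolysis genes lay on the lower side in OE-MLKL, and none of them passed. The hypoxia list had a median log2 difference of -1.11 with 15 of 18 genes below 0, glycolysis -0.78 with 13 of 14 and metalloproteinases and matrix, with Mmp12 and Mmp13 as the 2 calls, -0.86, against 0.04 over all genes. Among the members the hypoxia genes summed to 3033 CPM in OE-Vector 1 and to 1620.5, 1361 and 1906 CPM in OE-MLKL 1, 2 and 3, and OE-Vector 1 was also highest among Arg1-free cells, with 1475 CPM against 943 to 985 CPM. The members of OE-Vector 1 had the highest median depth. Their mix of Arg1 levels also differed. Cells with more than 15 Arg1 UMIs were 434 of 1078 members in OE-Vector 1. In OE-MLKL 1, 2 and 3 they were 125 of 930, 241 of 1363 and 275 of 1096. The part of this mix in the differences between the labelled groups was not tested. Fibroblast markers were on the higher side in OE-MLKL (median 1.40, 44.6 CPM in sum against 84.6 to 184) and T and NK markers on the lower side (median -1.84, 31.1 CPM against 8.53 to 17.6). Cancer markers had a median of 1.02 with 9 of 10 above 0, B cell markers -1.31 and dendritic cell markers -0.89, and the part of these cells in the calls was not tested. The lipid-associated (-0.73), inflammatory (-0.73) and interferon (-0.66, 0 of 12 above 0) lists also lay below the median of all genes, with no call. So did macrophage identity (-0.49, 3 of 12 above 0), MHC class II (-0.46, 0 of 10 above 0), stress (-0.37) and arginine and polyamine metabolism (-0.32). Checkpoint genes (-0.18) and alternative activation (-0.12) were lower by less, and the monocyte (0.48) and trap (0.73) lists lay above it.

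The contrast between members and Arg1-free cells was then compared between the labelled groups by an interaction term. The OE-Vector contrast comes from 1 tumour and has no replicate, so a difference of that tumour and of the label cannot be told apart. Of 13020 genes, edgeR called 2 (0.0154%), with 825 at an unadjusted p under 0.05, and both had a more positive contrast in OE-MLKL. Retnla, a resistin-like protein of alternative activation, was at 51.3 CPM in the members and 178 CPM in the Arg1-free cells of OE-Vector 1. At matched depth it was detected in 5.72% of the members and 5.72% of the Arg1-free cells of that library, so the shares of positive cells did not differ. In OE-MLKL 1, 2 and 3 it was at 0.871, 12.4 and 24.4 CPM in the members and 1.01, 7.45 and 16.1 CPM in Arg1-free cells, an interaction of 2.32 ± 0.20 on the log2 scale (edgeR adjusted p = 0.0015). Gzmf, a granzyme of activated T cells, had 4 UMIs in the members and 75 in the Arg1-free cells of OE-Vector 1, and 31 and 23 UMIs in OE-MLKL (6.17 ± 0.65, edgeR adjusted p = 0.0063). Without OE-MLKL 2 edgeR called 0 genes, Retnla and Gzmf included, with 619 at an unadjusted p under 0.05, and without OE-MLKL 1 or 3 it called 97 or 220. DESeq2 called 5 with all libraries. Gzmf also did not pass without called doublets or with C1q at 0.5% of UMIs or more. For the genes that set the members apart within a tumour, among them Slc7a2, Nos2 and the hypoxia and glycolysis lists, no difference of that contrast between the labelled groups was called, which does not show that it was equal.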

How the data were processed

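Cells from 1 OE-Vector and 3 OE-MLKL tumours were profiled with 10x Genomics 3' libraries. The deposited matrices hold whole-number counts of UMIs per gene and barcode, made by the authors with Cell Ranger (7.1.0 per the file headers, 2.1.1 in the submitters' processing notes) on mm10, and no other normalization was applied to them before deposit. OE-Vector 2 and 3 were not analysed here. The members and gene lists were chosen with earlier results of these data known.

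Counts were summed per library over members and over Arg1-free C1q macrophages. Sums were tested with edgeR 4.0.16 (R 4.3.3, filterByExpr, TMM, quasi-likelihood test, Benjamini-Hochberg adjustment, two-sided), with the library as a block for members against Arg1-free cells. Each library holds both sets, so the pairing comes from the tumour. Genes of the selection rule and mitochondrial genes were left out of the tests. CPM are counts over all summed UMIs of the set, scaled to 1000000. For matched depth, equal numbers of both sets were drawn within bins of 0.25 log2 units of UMIs per cell. Doublets were scored against simulated doublets and called at 0.8% per 1000 cells. Arg1 values are given with no test, since they chose the members (Python 3.11.15, scipy 1.17.1). Named genes were those of the lists, the 15 largest differences in each direction that passed at both depths, went the same way in 4 of 4 libraries and averaged at least 20 CPM in the higher set, and up to 10 genes called between labelled groups. Alternatives were DESeq2 1.42.0, limma-voom (3.58.1), other scaling, filters and gates, thinning to 1000 UMIs and leaving out each library. With the library as a block, p-values for members against Arg1-free cells measure how that difference within a tumour varied between these tumours. Those for the labelled groups and the interaction rest on the spread among the OE-MLKL tumours. Depth limits genes with few UMIs.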

Additional observations from a re-analysis of the deposited data

Results flagged for a closer look

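Retnla and Gzmf were called by the test of the interaction, which sets the contrast of members against Arg1-free cells in OE-MLKL beside that of OE-Vector 1. For Retnla the log2 contrast was 2.32 higher in OE-MLKL than in OE-Vector 1, where it was at 51.3 CPM in the members (527 UMIs) and 178 CPM in the Arg1-free cells (501 UMIs). For Gzmf it was 6.17 higher, with 0.389 CPM in the members (4 UMIs) and 26.6 CPM in the Arg1-free cells (75 UMIs) of OE-Vector 1. Both rest on 1 OE-Vector library, whose contrast has no replicate, and neither was called without OE-MLKL 2. A difference of this 1 tumour and a difference of the label cannot be told apart.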

How the results depend on the processing

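The lower share of members and the lower Arg1 level in OE-MLKL kept their direction in each of the 10 alternatives, as values with no test. Both other Arg1 bounds leave the Arg1 level as it is by construction. Leaving out an OE-MLKL library could not turn the direction, since OE-Vector 1 lay above each of them. The same OE-Vector library is in every alternative, so none of them measures its spread. The 912 genes that differed between members and Arg1-free cells became 1380 with Arg1 at 0.05% of UMIs or more, 473 with DESeq2 (348 higher, 125 lower), 1503 with no filter, 352 with cells thinned to 1000 UMIs, and 565 to 741 when a library was left out. With library size alone 411 were higher and 567 lower, against 561 and 351. The fit with no replicate block, which ignores that both sets come from the same tumours, called 3. Between the labelled groups no pairing was used, since the labels do not pair OE-Vector tumours with OE-MLKL tumours.

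The 3 genes between the labelled groups became 5 with Arg1 at 3 UMIs or more or at 0.05%, 72 with DESeq2, 7 without called doublets, 99 with no filter, and 9 to 970 without 1 library. Scaling by library size moved the median log2 difference of all genes from 0.04 to 0.21. The 2 interaction genes became 6 with C1q at 0.5% or more, 5 with DESeq2, 4 with library size alone, 11 at matched depth, 7 at matched depth without doublets, 1 with a mean of 20 UMIs, 12 with at least 1000 UMIs a cell, 10 without doublets, 149 with no filter, 12 without cells holding Krt8 or Krt18, and 0 to 220 without 1 library. The cause of these changes was not tested. The sets without keratin and the matched sets without doublets were chosen after seeing the data.

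Values of single genes held their direction and call in 1953 of the alternatives for members against Arg1-free cells and lost the call in 289. Directions turned for Krt18 (0.036) and Nkg7 (0.22) at matched depth without doublets, and for Dcn with C1q at 0.5% (0.24) and with thinning (0.061).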
